A study of Mus musculus with 14 samples.

Results

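Arpp21, Aqp11, Plxdc2, Dhrs3, Tdrd5, Plxnd1, Chst2 and Smo were examined as a set of 8 genes put forward as a signature of double-positive thymocytes, out of 19937 genes with a symbol on the arrays. They were chosen because they were much higher on thymus arrays or are known markers of that stage, so their difference between thymus and spleen is described here without a test. Each gene was read from its single probe set with 1 symbol, and all 8 passed the filter on low values that left 13641 genes. Sorted T cells of C57BL/6 mice were used, either wild type (WT) or carrying the genotype ENK KO, an abbreviation the labels do not spell out; the series title names Engrailed-2. Thymus gave CD4+CD8+ cells of 3 WT and 2 ENK KO samples, and spleen gave CD8+ cells of 4 WT and 5 ENK KO samples. WT mice were 7 months old. Of the ENK KO mice, thymus replicate 1 and spleen replicates 3 and 6 were 2 months old and female, and the others were males of 6 to 9 months. No other allele or agent is given in the labels. Values are log2 expression on whole-transcript Affymetrix arrays, 1 array per sample, so that a step of 1 is a doubling of signal.

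Double-positive thymocytes carry both CD4 and CD8 while they rearrange the T cell receptor alpha chain and are selected on self peptide and MHC. The cells that survive choose the CD4 or the CD8 lineage, leave the thymus and circulate through spleen and lymph nodes. The 8 genes do not form a single pathway. Smo is the signal-transducing receptor of the hedgehog pathway and Plxnd1 a plexin, a receptor for semaphorins that in mouse thymocytes has been tied to migration into the medulla. Plxdc2 is a transmembrane protein with a plexin-like domain, and Aqp11 is an aquaporin of intracellular membranes. Dhrs3 reduces retinal to retinol, and Chst2 transfers sulfate to N-acetylglucosamine on cell-surface glycans. Arpp21 is a cAMP-regulated phosphoprotein with an RNA-binding R3H domain, known in the mouse thymus in a long form called TARPP. Tdrd5 is a tudor domain protein of the germline piRNA pathway, known from mouse spermatogenesis.

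Of 8 markers listed for the double-positive stage, 7 had a probe set with 1 symbol. Their mean log2 value was 11.97 to 12.18 on the 5 thymus arrays, and none lay under the filter level of 6.76 there. Ptcra was the lowest of them, at 7.98 to 8.74. On the spleen arrays the mean of the same markers was 7.46 to 8.27, which includes Cd8a and Cd8b1, markers that splenic CD8+ cells share. Lists of B cell, myeloid, NK, erythroid, platelet and stromal markers had means of at most 7.46 on the thymus arrays. Single members lay higher there, among them Pecam1 at 10.08 to 10.50 and Cd68 at 8.69 to 9.14. Cd79b of the B cell list was at 9.67 to 9.96 on the thymus arrays and at 8.33 to 9.81 on the spleen arrays. On the spleen arrays the B cell list reached 8.07, the erythroid list 8.02 and the platelet list 7.45, against at most 7.02, 6.88 and 6.40 on the thymus arrays, and the part of such cells in the tissue differences was not tested. The library labelled spleen ENK KO replicate 28 went against its label, with Cd4 at 12.20 (6.61 to 6.92 on the 8 other spleen arrays) and Cd8a at 6.78 (12.06 to 12.53 on the others). Foxp3, the factor of regulatory T cells, was at 9.87 there against at most 7.48. Spleen WT replicate 22, labelled female, had Xist at 5.90, against at least 12.36 on the other 4 arrays labelled female. Spleen results are therefore given with and without replicate 28.

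In both genotypes, 7 of the 8 genes were far higher in thymocytes than in splenic CD8+ cells, and Chst2 was not. On every thymus array those 7 lay above every spleen array, and none of the 8 lay below; 32.1% and 24.4% of all 13641 genes did so, and nothing is read from that share because the genes were chosen by this contrast. The data thus go against the label of the set for Chst2. In sorted bulk RNA, fewer cells expressing a gene and less RNA per cell cannot be told apart.

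**Figure D1:**
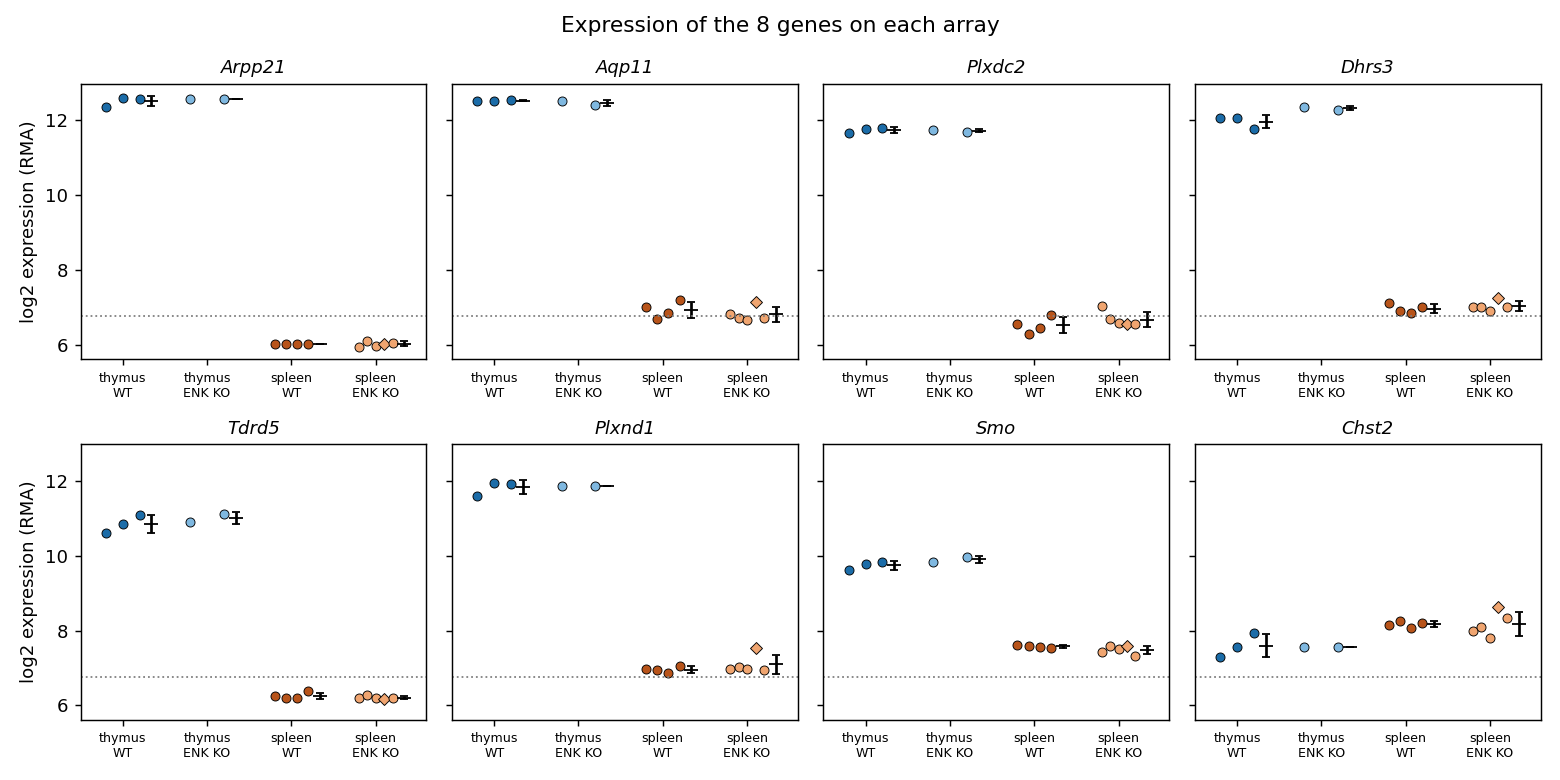
Log2 expression of each gene on each of the 14 arrays, by group. Points are arrays, the diamond is the library labelled spleen ENK KO replicate 28, black bars are the mean and SD, and the dotted line is the filter level of 6.76; 7 genes sit at 9.61 or above in thymus and at 7.61 or below in spleen, while Chst2 sits between 7.30 and 8.62 throughout.

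Arpp21 had the widest gap. Its log2 value was 12.37, 12.61 and 12.58 on the WT and 12.58 on both ENK KO thymus arrays. In spleen it was 6.02 on all 4 WT arrays, and 5.95, 6.11, 5.96, 6.02 and 6.05 on ENK KO replicates 3, 6, 25, 28 and 31. The groups of the 2 tissues lay 6.27 apart at their nearest arrays, and the WT means differed by 6.50, a 90.7-fold difference, which placed Arpp21 at rank 3 of 13641 genes. The spleen values stood at about the 23.0th percentile of all values, close to the floor of the arrays, which makes the fold approximate.

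The probe set named Mir128-2 is that of a miRNA gene inside Arpp21, on the same strand. Mir128-2 was not among the 8 genes but was taken for its place in Arpp21, so its test is not independent of that choice. It was at 8.61, 9.78 and 9.46 on the WT and 8.89 and 9.61 on the ENK KO thymus arrays. On the spleen arrays it was at 6.94, 7.26, 7.13 and 7.12 in WT and at 6.97, 7.2, 7.07, 7.29 and 7.2 in ENK KO. All 5 thymus arrays were thus above all 9 spleen arrays. In WT it was 4.50-fold higher in thymocytes (log2 difference 2.17, SE 0.23, limma adjusted p = 2.25e-06). Its values spread more widely among the thymus arrays than those of Arpp21, and both were lowest on WT replicate 7. Probes of this kind cannot tell the mature miRNA from the host transcript that carries it. Mir128-1, the paralogous gene on another chromosome, chosen after its values were seen, was at 8.30, 8.74 and 8.77 on the WT thymus arrays and at 8.22 to 8.70 on the WT spleen arrays, so that its groups overlapped. Both genes encode the same 3p arm, and their 5p arms share a seed. The mature sequences of RefSeq (GRCm38.p6) are shown for the comparison of the 2 genes, with the seed, bases 2 to 8, in capitals.
miR-128-3p (from Mir128-2, chr9:112118644-112118664, minus strand): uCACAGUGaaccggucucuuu
miR-128-2-5p (from Mir128-2, chr9:112118679-112118701, minus strand): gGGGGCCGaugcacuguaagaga
miR-128-1-5p (from Mir128-1, chr1:128202369-128202389, plus strand): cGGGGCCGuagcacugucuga

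**Figure D2:**
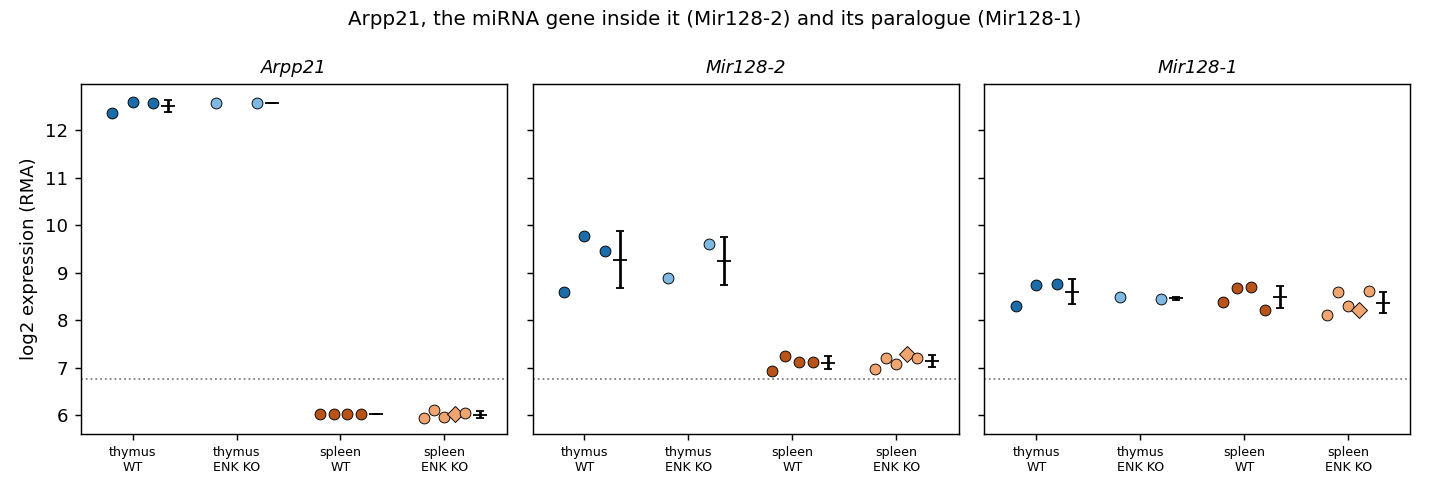
Log2 expression of Arpp21, of Mir128-2 inside it and of Mir128-1 on each array, by group (points, arrays; diamond, the library labelled spleen ENK KO replicate 28; bars, mean and SD; dotted line, filter level of 6.76). Arpp21 and Mir128-2 are higher on all 5 thymus arrays than on all spleen arrays, whereas Mir128-1 lies between 8.12 and 8.77 in every group.

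Among the receptors, Plxnd1 was at 11.62, 11.96 and 11.93 on the WT and at 11.87 on both ENK KO thymus arrays. In spleen it was at 6.97, 6.95, 6.86 and 7.06 in WT, and at 6.98, 7.03, 6.97, 7.55 and 6.95 on ENK KO replicates 3, 6, 25, 28 and 31. The spleen arrays were thus tightly grouped apart from replicate 28. The WT difference between the tissues was 4.88 (29.4-fold), an approximate fold because the WT spleen values lay close above the filter level. Smo was at 9.61, 9.79 and 9.84 in WT and at 9.84 and 9.97 in ENK KO thymocytes. Its spleen values were 7.61, 7.6, 7.56 and 7.54 in WT and 7.43, 7.58, 7.51, 7.58 and 7.32 in ENK KO. Smo had the smallest difference of the 7 higher genes, at 2.17 (4.50-fold) in WT, rank 177, and its spleen values were well clear of the filter level. Plxdc2 ran from 11.66 to 11.79 on the thymus arrays and from 6.27 to 7.02 on the spleen arrays, a WT difference of 5.23 (37.5-fold). This fold is approximate, since 7 of the 9 spleen arrays were under the filter level.

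Among the enzymes and channels, Aqp11 ran from 12.41 to 12.54 in thymus and from 6.65 to 7.18 in spleen, a WT difference of 5.60 (48.6-fold, rank 7). Its fold is approximate, since 4 of the 9 spleen arrays were under the filter level. Dhrs3 was at 12.07, 12.07 and 11.76 on the WT and at 12.37 and 12.29 on the ENK KO thymus arrays. In spleen it lay between 6.83 and 7.24, and its WT difference was 5.01 (32.1-fold). This fold too is approximate, since the spleen values lay close above the filter level. Dhrs3 is the 1 gene of the 8 whose ENK KO thymus arrays were both above all WT thymus arrays, as was the case for 4.04% of all 13641 genes. Tdrd5, the germline protein, ran from 10.61 to 11.12 in thymus and from 6.18 to 6.38 in spleen, a WT difference of 4.60 (24.2-fold). It was under the filter level on all 9 spleen arrays, so the fold is approximate.

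Chst2 was at 7.30, 7.57 and 7.93 on the WT and at 7.57 on both ENK KO thymus arrays. In spleen it was at 8.16, 8.27, 8.07 and 8.20 in WT and at 8.0, 8.10, 7.81, 8.62 and 8.34 in ENK KO. The highest thymus array thus overlapped the lowest spleen array, and the WT mean was 0.58 lower in thymocytes, a 1.49-fold difference in the direction opposite to the other 7 genes. Chst2 stood at rank 11851 of 13641 for this difference. In ENK KO the thymus mean was lower by 0.61, and by 0.49 without spleen replicate 28.

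Identical values recurred on several arrays: Arpp21 took 8 different values and Aqp11 12 over the 14 arrays, and the median over all probe sets was 12. RMA's median polish is known to give exact ties, so an SD near 0 within a group, as for Arpp21 in WT spleen, understates the noise of the measurement. Around their group means the genes varied by an SD of 0.072 (Arpp21) to 0.25 (Chst2), against a median of 0.096 over all genes tested. Deviations from the group means correlated with a median r of 0.35 over the 28 pairs of genes, from -0.43 (Dhrs3 and Tdrd5) to 0.76 (Plxnd1 and Chst2), over 14 arrays that share the same libraries. Without spleen replicate 28 the median was 0.29 and the highest was 0.85 (Aqp11 and Plxdc2), so the closest pair changed with that library. On the thymus arrays these 2 genes deviated by only -0.057 to 0.057 and -0.082 to 0.05. Their r thus rests on the spleen arrays, where Aqp11 was under the filter level on 4 of 9 and Plxdc2 on 7. Pairs of other genes were not measured for comparison, so nothing about shared regulation is read from these values.

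No gene of the 8 passed the test between ENK KO and WT in either tissue. In thymus limma called 0 of 8 at an adjusted p under 0.05, where 0.0147% of all genes were called, and in spleen 0 of 8 against 0.00733%. The spleen count includes 2 genes, Arpp21 and Tdrd5, that lay under the filter level on all 9 spleen arrays and were tested only because thymus was high. The other 6 were above it on at least 1 spleen array, but Plxdc2 was under it on 7 of the 9 and Aqp11 on 4. That level is a percentile of all values and not a limit of detection. Dhrs3 (6.83 to 7.24) and, apart from replicate 28, Plxnd1 (6.86 to 7.06) lay close above it, so their spleen results say little about the genotype. At an unadjusted p under 0.05 there was 1 of 8 in thymus (3.53% of all genes) and 0 of 8 in spleen (8.37%). No gene of the 8 had ENK KO arrays all below WT arrays in thymus (5.21% of all genes), and in spleen none had them all above (0.894%) or all below (0.814%), nor without replicate 28 (2.13% and 1.43%). The test of whether the effect differed between the tissues called 0 of 8 (0.00733% of all genes), with Smo at an unadjusted p of 0.034 (2.99% of all genes were under 0.05). Without replicate 28 limma again called 0 of 8 in thymus (0.0367% of all genes), in spleen (0.0147%) and for the difference between the tissues (0.00733%), with 1, 1 and 2 genes at an unadjusted p under 0.05 (4.07%, 9.72% and 3.61% of all genes). In thymus 5 genes were above and 3 below 0, with a median of 0.046 beside 0 over all genes tested, and in spleen 3 were above and 5 below, with a median of -0.0016 beside -0.01.

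Dhrs3 had the largest value, with an ENK KO mean of 12.33 ± 0.06 (SD, n = 2) against 11.97 ± 0.18 (n = 3) in WT thymocytes. The log2 difference was 0.36 (95% interval 0.11 to 0.62, SE 0.12, unadjusted p = 0.00821, limma adjusted p = 1), a 1.29-fold value that did not pass. The ENK KO arrays did not overlap the WT arrays, as was the case with ENK KO higher for 4.04% of all genes. Of these ENK KO mice 1 was 2 months old, and the difference was 0.37 with an age of 2 months as a covariate and 0.32 without the 2-month-old animals. Over 29 alternatives it ran from 0.26 to 0.42, with an adjusted p of at least 0.142. In spleen Dhrs3 differed by 0.062 (95% interval -0.12 to 0.25) and by 0.0066 without replicate 28, and the spleen effect minus the thymus effect was -0.30 (95% interval -0.61 to 0.01). Without replicate 28 that difference was -0.36 (95% interval -0.63 to -0.080, unadjusted p = 0.0158, limma adjusted p = 0.978), which did not pass.

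Smo differed by 0.16 in thymus (95% interval -0.03 to 0.34) and by -0.095 in spleen (-0.23 to 0.041). The spleen effect minus the thymus effect was -0.25 (SE 0.11, limma adjusted p = 1.00), which did not pass. Tdrd5 differed by 0.17 in thymus (95% interval -0.07 to 0.41) and by -0.049 in spleen (-0.22 to 0.13). For Arpp21 the thymus difference was 0.062 (95% interval -0.09 to 0.21). On the linear scale the thymus interval of Arpp21 ran from 0.942-fold to 1.16-fold, a width that the tied values also shape. The spleen values of Tdrd5 above and of Arpp21 (-0.0027) are from probe sets under the filter level on all 9 spleen arrays, so they say nothing about an effect of the genotype there.

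Aqp11 differed by -0.063 in thymus (95% interval -0.38 to 0.26) and by -0.12 in spleen (-0.35 to 0.12). Without spleen replicate 28 its spleen difference was -0.21 (95% interval -0.40 to -0.015, unadjusted p = 0.037, limma adjusted p = 0.488), which did not pass, and 9.72% of all genes had an unadjusted p under 0.05 in that fit. Plxdc2 differed by -0.02 in thymus (95% interval -0.34 to 0.30) and by 0.15 in spleen (-0.09 to 0.39). Plxnd1 differed by 0.03 (95% interval -0.31 to 0.37) in thymus and by 0.14 (-0.11 to 0.39) in spleen, where leaving out replicate 28 gave 0.026. Chst2 differed by -0.03 (95% interval -0.47 to 0.41) in thymus and by -4.2e-04 (-0.33 to 0.33) in spleen, or -0.11 without replicate 28. For Mir128-2 the differences were -0.035 (95% interval -0.63 to 0.56) and 0.036 (-0.40 to 0.47), limits that in thymus reached from 0.648-fold to 1.47-fold.

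**Figure D3:**
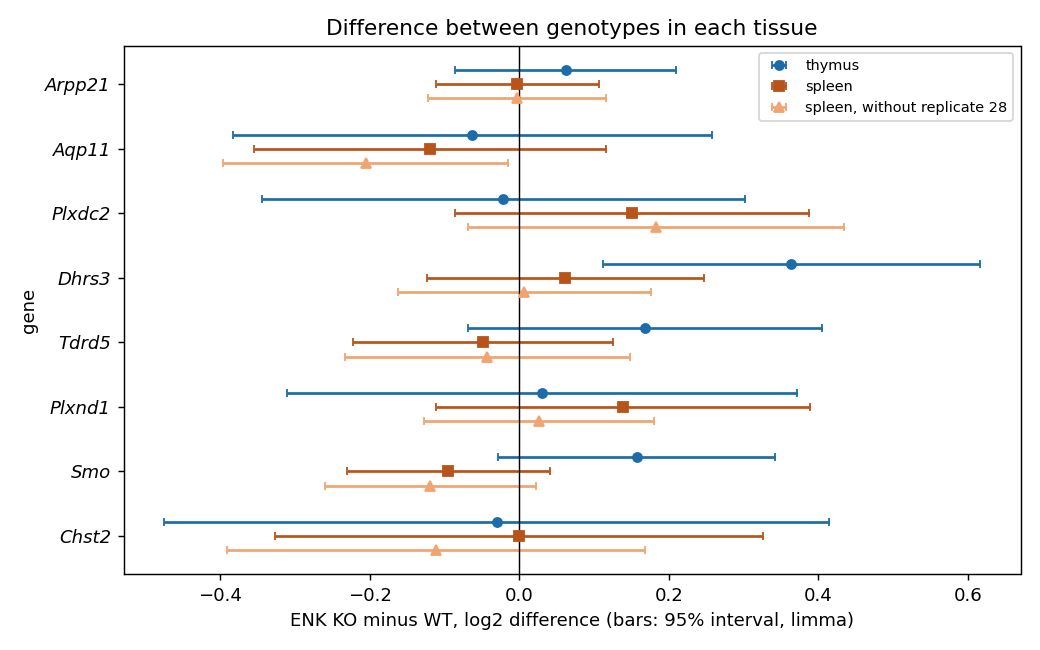
Log2 difference between ENK KO and WT for each gene in thymus (circles), in spleen (squares) and in spleen without replicate 28 (triangles), with 95% intervals from the limma fit. Intervals span 0 except for Dhrs3 in thymus (0.11 to 0.62) and Aqp11 in spleen without replicate 28 (-0.40 to -0.015), neither of which passed after adjustment.

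The library labelled spleen ENK KO replicate 28 differed from the other spleen arrays in some of the 8 genes and not in others. Plxnd1 (7.55 against 6.86 to 7.06), Chst2 (8.62 against 7.81 to 8.34) and Dhrs3 (7.24 against 6.83 to 7.12) were above all 8 other spleen arrays, 3 of the 8 genes where 15.0% of all genes were. Tdrd5 was below all of them, at 6.18 against 6.19 to 6.38, as were 17.9% of all genes. Arpp21 (6.02), Plxdc2 (6.54), Smo (7.58) and Aqp11 (7.15) lay within the range of the others. None of the 7 genes high in thymus came near its thymus level in that library, the nearest being Smo at 7.58 against at least 9.61, although Cd4 there was at 12.20. It is 1 library, so these are values with no test.

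**Figure D4:**
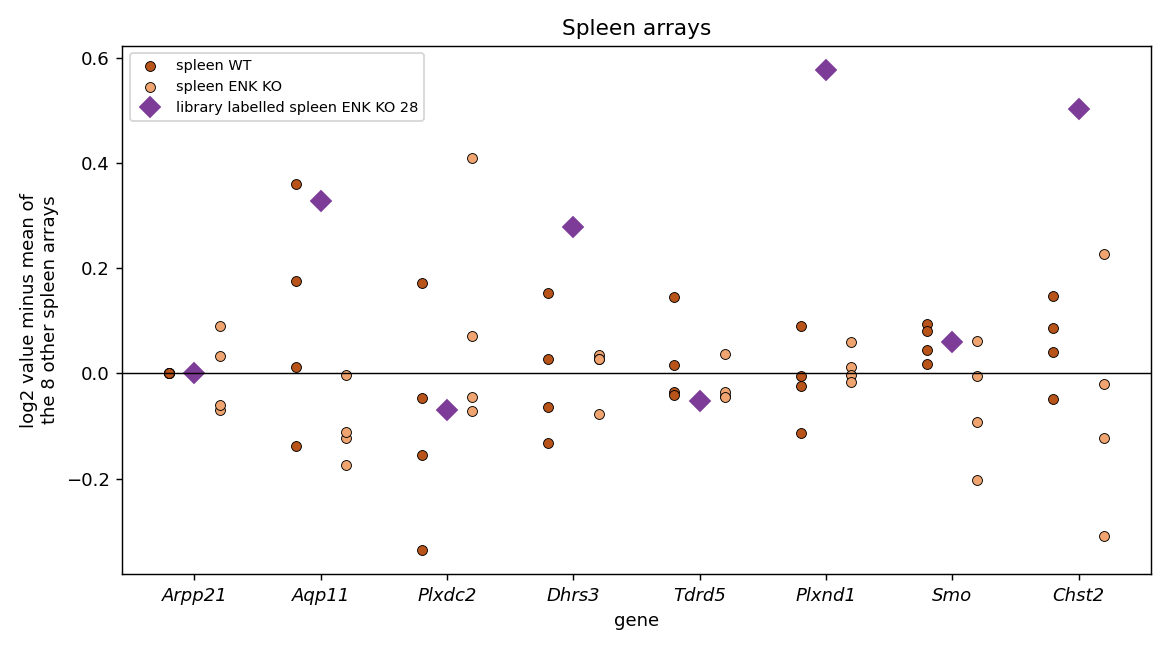
Log2 value of each gene on each spleen array minus the mean of the 8 spleen arrays other than replicate 28 (dark circles, WT; light circles, ENK KO; purple diamond, the library labelled spleen ENK KO replicate 28). The diamond stands above all circles for Plxnd1, Chst2 and Dhrs3, by up to 0.58 over the mean for Plxnd1, and among or below them for the others.

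Genes related to each of the 8 were tested between the tissues. Their lists were chosen with earlier results of these data known and so are no independent evidence. In WT cells limma called 38.2% of all genes higher and 30.5% lower in thymocytes, and the lists below are read against those shares. Where a gene's mean lay under the filter level of 6.76 in 1 tissue, its fold is approximate. Of 15 hedgehog pathway genes tested, 6 were higher and 4 lower (median 0.03, beside 0.045 over all genes). Gsk3b and Csnk1a1, kinases that act on the Gli factors, were 2.00-fold and 1.64-fold higher (adjusted p = 4.41e-09 and 9.76e-08). Gli1, a target gene of the pathway, was 1.36-fold higher (log2 difference 0.44, adjusted p = 4.10e-06). Its WT means were low, 7.64 in thymus and 7.20 in spleen beside array medians of 7.14 to 7.25, so no pathway activity is read from it. Gli2, chosen after its values were seen, was lower by -0.35 (adjusted p = 5.83e-05), with a WT thymus mean of 6.63, under the filter level. Arrb2, a beta-arrestin, was 2.53-fold lower (adjusted p = 5.15e-09). Ptch1, the hedgehog receptor that holds Smo in check and is itself a target, chosen after its values were seen, differed by 0.03 (adjusted p = 0.787), while Smo was 4.50-fold higher.

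Of 17 retinoid genes tested, 3 were higher and 7 lower (median -0.10). Rdh11, another retinal reductase, was 2.24-fold higher in thymocytes (adjusted p = 4.86e-09). The retinoid receptors Rxra and Rarg were lower, by log2 differences of -1.21 and -2.03 (adjusted p = 1.44e-09 and 5.07e-09), Rarg lying at a mean of 6.81 in WT thymocytes, close to the filter level. Rdh12 was lower by -0.50 (adjusted p = 1.40e-05). The other 2 genes higher in thymocytes, chosen after their values were seen, were Rdh10, a retinol dehydrogenase, at 2.47-fold (adjusted p = 0.00204, and 0.0619 in labelled males only) and Rdh14 at 1.22-fold (adjusted p = 0.00104).

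The semaphorin and plexin list held 15 tested genes, 8 higher and 6 lower (median 0.18). Sema7a, a membrane-anchored semaphorin, was 9.59-fold higher in thymocytes (log2 difference 3.26, SE 0.07, adjusted p = 5.81e-13), and Plxna1 1.85-fold (adjusted p = 1.34e-07). Sema4a, a semaphorin that acts on T cells, was 16.4-fold lower (log2 difference -4.04, SE 0.15, adjusted p = 1.30e-10), and Sema4f 6.16-fold lower (adjusted p = 6.05e-09), from a WT thymus mean of 6.59, under the filter level. Sema3e, the ligand of Plxnd1, did not pass the filter on low values in these T cells. Plxdc1, the paralogue of Plxdc2, was 12.2-fold higher in thymocytes (log2 difference 3.61, SE 0.08, adjusted p = 2.23e-12), the same direction as Plxdc2.

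Of 15 other sulfotransferase and sulfate donor genes, 6 were higher and 4 lower (median 0.11). Papss2, which makes the sulfate donor that all these enzymes use, was 11.2-fold higher in thymocytes (log2 difference 3.49, SE 0.16, adjusted p = 6.93e-10), with a spleen mean of 6.18, under the filter level. Hs2st1 and Hs6st1, which sulfate heparan chains, were 2.65-fold and 3.07-fold higher (adjusted p = 5.03e-11 and 1.99e-10), and Chst10 1.49-fold (adjusted p = 8.76e-07). The 4 called lower, chosen here after their values were seen, were Chst15 (2.70-fold, adjusted p = 9.88e-05), Chst11 (2.07-fold, 0.0259), Ndst2 (1.33-fold, 2.84e-05) and Chst1 (1.20-fold, 0.013), the direction of Chst2; the call of Chst11 was lost without any 1 of the 3 WT thymus arrays or without spleen WT replicate 34 or 37 (adjusted p of 0.0517 to 0.0718), and those of Chst11 and Chst1 in labelled males only (0.0983 and 0.0549).

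Of 6 aquaporins tested besides Aqp11, 1 was higher and 3 were lower in thymocytes. Aqp3 and Aqp9, which also pass glycerol, were 1.59-fold and 4.07-fold lower (adjusted p = 1.04e-07 and 3.96e-06), Aqp9 from a tied value of 6.41 on all 5 thymus arrays, under the filter level. Aqp2 differed by -0.20 (adjusted p = 0.00993) and Aqp5 by 0.19 (adjusted p = 0.0349), the call of Aqp5 being lost in 7 of 28 alternatives. The call of Aqp2 was lost in labelled males only (log2 difference -0.18). Of 16 tudor and piRNA genes, 6 passed the filter, 2 of them higher and 3 lower. Tdrkh was 3.43-fold higher (adjusted p = 4.29e-06) and Tdrd3 1.41-fold (adjusted p = 7.81e-06), while Tdrd7 was 2.21-fold and Snd1 1.64-fold lower (adjusted p = 1.02e-07 and 1.17e-06), with Tdrd7 at a WT thymus mean of 6.10 and Tdrkh at a WT spleen mean of 6.59, both under the filter level. The Piwi genes themselves, Piwil1, Piwil2 and Piwil4, did not pass the filter. Of 7 genes listed with Arpp21, 4 were higher and 1 lower, Arpp19, the small phosphoprotein of similar name, being 1.62-fold higher (adjusted p = 2.30e-06), R3hdm2 1.46-fold (9.82e-06) and Ensa 1.19-fold (0.00106), and R3hdml 1.16-fold lower (5.82e-04).

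**Figure D5:**
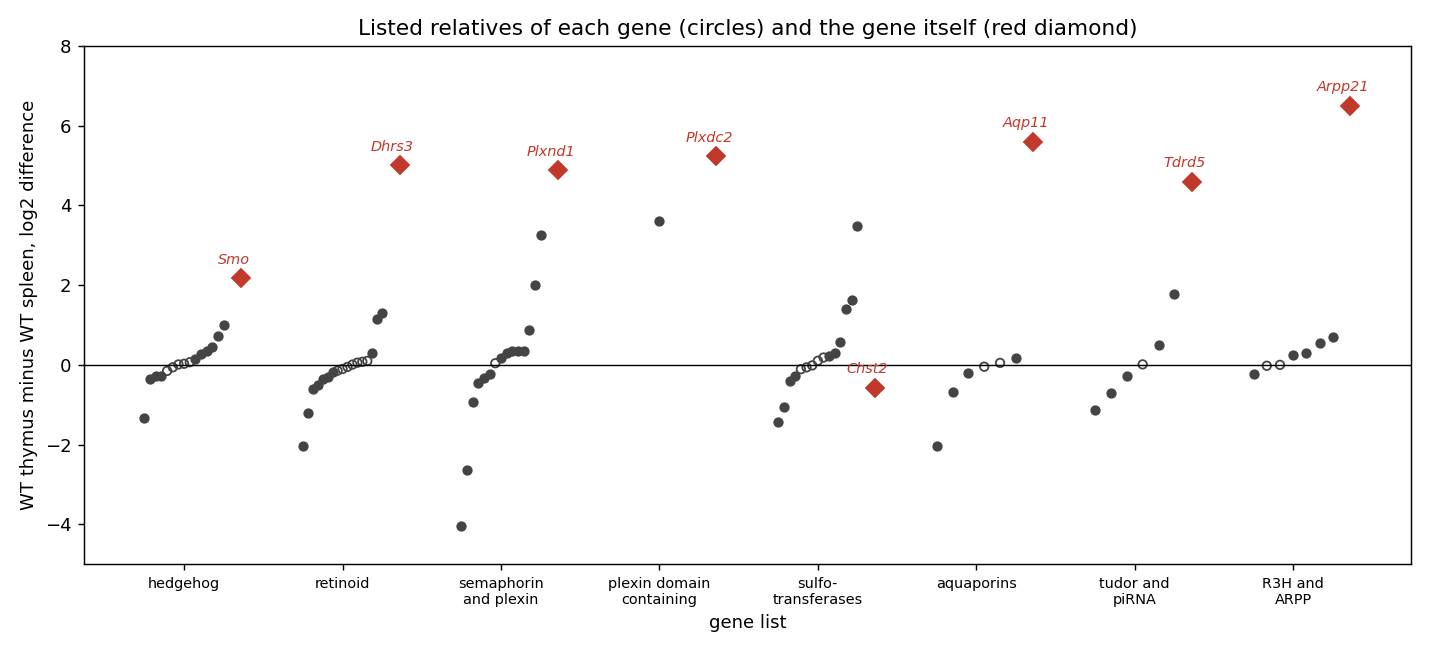
Log2 difference between WT thymus and WT spleen for the tested genes of each list (circles, filled where limma's adjusted p is under 0.05) and for the gene the list belongs to (red diamond, no test). The diamonds run from -0.58 for Chst2 to 6.50 for Arpp21, and since these genes were chosen for this contrast their height above the circles is not a result; the circles fall on both sides of 0 in every list of more than 1 gene.

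A list of other double-positive thymocyte genes, chosen with results of these data known and so no independent evidence, had 22 of 28 higher and 3 lower in WT thymocytes. Bcl2l1, the survival gene of this stage, was 7.23-fold higher (adjusted p = 1.61e-13), beside Rag1, Rag2 and Dntt at 99.6-fold, 88.0-fold and 56.5-fold (largest adjusted p = 2.61e-13), folds that are approximate because all 3 had WT spleen means under the filter level (6.26, 4.53 and 6.44). Between genotypes, limma called 1 of 110 listed genes in thymus (0.0147% of all genes were called) and 0 of 110 in spleen (0.00733%). That gene was Slc7a11, 2.45-fold higher in ENK KO thymocytes (adjusted p = 0.00843) and 1 of only 2 genes called in thymus over all genes. Its list was chosen with results of these data known, so nothing about double-positive genes is read from the call of Slc7a11. It was at 10.72, 10.86 and 10.42 on the WT and at 11.75 and 12.16 on the ENK KO thymus arrays, which did not overlap. The log2 difference of 1.29 was 1.29 with each tissue fitted alone (adjusted p = 0.869) and 1.52 in labelled males only (adjusted p = 0.171), where 1 ENK KO thymus array is left and is assumed to vary like the other groups; neither fit passed. In spleen it lay at 5.25 to 5.71, under the filter level, and no comparison of its effect between the tissues is drawn. At an unadjusted p under 0.05, in thymus (3.53% of all genes) there were 1 of 17 retinoid, 1 of 15 semaphorin and plexin and 2 of 28 double-positive genes, and 0 of the other lists. In spleen (8.37% of all genes) there were 1 of 15 hedgehog, 1 of 15 semaphorin and plexin, 1 of 15 sulfotransferase, 2 of 6 aquaporin, 2 of 6 tudor, 1 of 7 R3H and 2 of 28 double-positive genes, and 0 of 17 retinoid genes. The sulfotransferase was Chst11, at 6.45 on spleen ENK KO replicate 28 and between 7.61 and 9.05 on the 8 other spleen arrays.

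The profiles nearest to the mean profile of the 8 genes over the 14 arrays belonged to Tube1, Cdca7, Smoc1, Slc43a1 and Endou, with root mean square differences of 0.11 to 0.27 on the log2 scale. Single genes had other neighbours by this measure. The nearest to Arpp21 was Rag2 (0.17) and to Aqp11 Dntt (0.15). F13a1, a chain of coagulation factor XIII, was nearest to Plxdc2 (0.28), Dhrs3 (0.22), Tdrd5 (0.12) and Plxnd1 (0.15). Ttc12 was nearest to Smo (0.12), and Rora, a nuclear receptor gene, to Chst2 (0.15). The measure reflects the step between tissues in the main.

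On each side of each of the 8, the nearest gene with a probe set of 1 symbol was taken as its neighbour for the same contrast. Up to 7 genes were passed over to reach it, and Mir128-2 lies inside Arpp21. Since the 8 were chosen for this contrast, sizes are not compared. Of 16 neighbours on the arrays 11 were tested, and limma called 7 higher and 2 lower in WT thymocytes. Of all genes 38.2% were called higher and 30.5% lower, 68.6% in either direction. Among the 7 higher, the largest difference was that of Mir128-2, whose test is not independent of the choice of Arpp21. Next came Slc9a9, near Chst2, at 2.50-fold (log2 difference 1.32, adjusted p = 4.70e-08). Nebl, near Plxdc2, was 2.34-fold, Clns1a, beside Aqp11, 2.12-fold, and Tmcc1, beside Plxnd1, 2.00-fold higher (adjusted p = 6.59e-07, 4.21e-08 and 4.37e-08). U2surp and Vps13d were 1.35-fold and 1.29-fold higher (3.99e-05 and 0.00553), the latter with an adjusted p of 0.0629 in labelled males only. Tnfrsf1b, a tumour necrosis factor receptor gene near Dhrs3, was 3.72-fold lower (adjusted p = 2.72e-08). Ahcyl2, near Smo, was 1.23-fold lower (adjusted p = 0.0163, and 0.0664 without thymus WT replicate 32). Abl2 and Tspan33 did not pass (0.205 and 0.454). Stac, Gdpd4, Malrd1, Fam163a and H1f8 were under the filter.

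The promoter windows of RefSeq, 250 bases before to 50 after the gene's start, were at hand for 7 of the 8 genes, and the window furthest upstream was used where a gene had several. Short motifs of T cell factors were searched on both strands and are letters in a window, not sites. The E box CANNTG, of which CAGGTG and CAGCTG are forms, was in 2 of 7 (Aqp11 and Arpp21), and in 72.1% of all 27025 promoters; CAGGTG and CAGCTG were in 0 of 7 (20.0% and 16.1%). The nuclear receptor core element AGGTCA was in Aqp11 and Plxnd1 (16.0%), TGTGGT of Runx in Arpp21 (16.9%), ACAAAG of TCF-1 in Smo (18.7%) and TGGGAA of Ikaros in Aqp11 (25.5%). GGGCGG was in Chst2 and Plxnd1 (35.9%) and TATAAA in 0 of 7 (14.2%). GC content was 40.7% for Arpp21 and 58.7% to 76.0% for the other 6. The windows of Aqp11, Plxnd1 and Tdrd5, the genes of largest difference with 1 window each, and of Chst2, which went the other way, are shown, by a choice made after values were seen, from GRCm38.p6 with motifs other than CANNTG in capitals.
Aqp11 promoter (chr7:97738198-97738497, minus strand): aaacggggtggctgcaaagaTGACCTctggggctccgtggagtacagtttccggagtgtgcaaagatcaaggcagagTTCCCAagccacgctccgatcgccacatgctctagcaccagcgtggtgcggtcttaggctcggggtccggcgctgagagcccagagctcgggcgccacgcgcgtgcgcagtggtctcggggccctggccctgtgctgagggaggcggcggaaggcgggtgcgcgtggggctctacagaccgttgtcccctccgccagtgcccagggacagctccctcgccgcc
Plxnd1 promoter (chr6:115994956-115995255, minus strand): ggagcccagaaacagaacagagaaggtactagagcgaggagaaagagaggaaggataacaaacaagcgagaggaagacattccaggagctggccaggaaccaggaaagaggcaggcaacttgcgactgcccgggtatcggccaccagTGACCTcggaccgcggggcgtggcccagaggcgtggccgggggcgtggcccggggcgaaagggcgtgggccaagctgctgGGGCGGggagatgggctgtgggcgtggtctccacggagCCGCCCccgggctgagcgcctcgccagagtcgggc
Tdrd5 promoter (chr1:156303299-156303598, minus strand): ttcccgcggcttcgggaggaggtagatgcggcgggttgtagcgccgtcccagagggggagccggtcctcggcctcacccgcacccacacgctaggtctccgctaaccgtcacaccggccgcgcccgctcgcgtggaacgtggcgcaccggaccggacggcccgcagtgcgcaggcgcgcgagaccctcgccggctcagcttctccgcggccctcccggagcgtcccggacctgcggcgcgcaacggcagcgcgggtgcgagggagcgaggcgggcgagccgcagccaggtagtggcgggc
Chst2 promoter (chr9:95407221-95407520, minus strand): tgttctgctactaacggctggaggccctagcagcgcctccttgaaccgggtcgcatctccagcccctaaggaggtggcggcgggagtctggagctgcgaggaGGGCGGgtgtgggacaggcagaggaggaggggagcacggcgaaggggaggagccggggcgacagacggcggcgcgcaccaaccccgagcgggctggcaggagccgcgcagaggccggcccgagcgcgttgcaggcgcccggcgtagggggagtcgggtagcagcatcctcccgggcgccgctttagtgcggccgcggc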

How the data were processed

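Expression was measured on 14 single-channel Affymetrix arrays of sorted T cells, and the deposited values are log2 expression per probe set. RMA is the method named for them, per the submitters' processing notes. The set of arrays that went through RMA together was not stated. The number of arrays limits the precision. Of 28213 probe sets 21640 had 1 symbol in the platform annotation, 1321 several and 5252 none in the table used; the probe set with the highest mean was kept for each of 19937 symbols, and only probe sets with 1 symbol were used. Gene order came from a RefSeq table of GRCm38.p6, where 21553 symbols were found by gene ID, and sequences from RefSeq tables of that build. Array medians lay between 7.14 and 7.25.

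A gene was tested if 2 or more arrays exceeded 6.76, the 40th percentile over the whole table (13641 genes). All arrays entered 1 limma 3.58.1 fit (R 4.3.3) with a mean per group and a variance trend, so that the 2 thymus ENK KO arrays share the spread of the other groups. Benjamini-Hochberg adjustment covered every tested gene. The labels do not state that samples came from separate animals, so the p-values speak of variation among these samples, which may be technical. The genes and lists were chosen with earlier results of these data known. The 8 genes were always named, as were their neighbours, up to 4 genes of a list by smallest p, and the genes nearest in profile; Slc7a11 was named as the listed gene called. Alternatives were other filters, scalings, variance models, covariates and subsets, and each array left out. On simulated data the fit recovered 92 of 100 genes changed by 1 on the log2 scale in thymus and 59 of 100 changed by 0.5. In spleen it recovered 100 and 85 of 100 (13641 genes each). False calls numbered 4 in thymus and 11 in spleen. The simulated noise was normal and without ties, and far more genes were changed than limma called in the data. These shares may therefore be too high for the 8 genes.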

Additional observations from a re-analysis of the deposited data

Results flagged for a closer look

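Among 18 sets of spleen values (the 8 genes and Mir128-2 in WT and in ENK KO), chance sets apart about 5% of groups by the gap used here, which is the distance of the highest or lowest array from its neighbour as a share of the range. Plxnd1 was at 7.55 on the library labelled spleen ENK KO replicate 28, far from the next array at 7.03; this library went against its label in Cd4 and Cd8a. Tdrd5 was at 6.27 on spleen ENK KO replicate 6, next to 6.19, a small gap under the filter level of 6.76.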

How the results depend on the processing

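The count of the 8 genes called between genotypes was 0 in thymus, in spleen and for the difference between the tissues under all alternatives run (29, or 28 for the last, which cannot be had from each tissue alone). No paired analysis was possible because the groups share no replicate numbers. Each of the 8 genes has 1 probe set with 1 symbol, so reading every probe set on its own gave no other value. The listed genes called in thymus (1) were 0 with each tissue alone and 0 in labelled males only, and 1 to 2 with an array left out (2 without thymus ENK KO replicate 29). Over all genes, limma called 2 between genotypes in thymus, 0 with each tissue alone and 24 with array weights, and 1 in spleen (0 to 3) and 1 for the difference between the tissues (0 to 5). The neighbours called between WT tissues (9) were 12 with no filter, and 84 listed genes became 67 to 87.

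Values near 0 that did not pass changed sign. In thymus Arpp21 was -0.013 and Plxnd1 -0.080 in labelled males only, and Plxnd1 -0.042 with array weights. Chst2 was 0.044 with age and 1.5e-04 with labelled sex as covariate, and Mir128-2 was 0.11 and 0.036 with these and 0.32 without the 2-month-old animals. In spleen Arpp21 was 0.030, 0.029 and 0.0034 after median centring, quantile normalization and with labelled sex as covariate. Chst2 in spleen was 0.033 after median centring, 0.0022 after quantile normalization, 0.059 with age and 0.027 with sex as covariate, 0.084 without the 2-month-old animals and 0.079 in males only. Mir128-2 in spleen was -0.057 without spleen ENK KO 28 and spleen WT 22. For the spleen effect minus the thymus effect, Arpp21 was 0.0027 in males only, Aqp11 0.031 without the 2-month-old animals and 0.058 in males only, and Mir128-2 -0.25 without the 2-month-old animals. Without spleen ENK KO 28, alone and together with spleen WT 22, Plxnd1 was -0.0040 and -0.0013 and Chst2 -0.082 and -0.087; Mir128-2 was -0.022 without both. Ptch1 between the WT tissues was -0.075 after quantile normalization, and -0.0074 to 0.063 with an array left out. The cause was not tested.

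With single arrays left out, the thymus difference ran from -0.013 to 0.11 for Arpp21, -0.063 to 0.0105 for Plxdc2, -0.080 to 0.092 for Plxnd1, -0.18 to 0.13 for Chst2 and -0.40 to 0.32 for Mir128-2. The spleen difference ran from -0.025 to 0.014 for Arpp21, -0.11 to 0.091 for Chst2 and -0.021 to 0.085 for Mir128-2. The difference between the tissues ran from -0.11 to 0.0099 for Arpp21, -0.14 to 0.029 for Aqp11, -0.0040 to 0.22 for Plxnd1, -0.13 to 0.18 for Chst2 and -0.29 to 0.43 for Mir128-2. Spleen signal under the filter level, on all or some of the spleen arrays, limits the size of the tissue differences of Arpp21, Tdrd5, Plxdc2 and Aqp11. The spleen signal of Dhrs3 and, apart from replicate 28, of Plxnd1 lay close above that level, so their folds are approximate too.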
